A study of Mus musculus with 3 samples.

Results

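The genes of the MHC class III region, the gene-dense stretch of mouse chromosome 17 that lies between the class II and class I genes of the H2 complex, were examined in NOD and B6 blastocysts. Members were the genes of the RNA-Seq count table that start between 34.4 and 35.26 Mb of chromosome 17 (mm10), without the H2, microRNA and small nucleolar RNA genes, which gave 62 of the 24063 genes listed. The first member, Btnl4, starts at base 34469042 and the last, Ddx39b, ends at base 35253707. Of the 62 genes, 59 are protein-coding. They lie at 7.21 genes per 100 kb of the window, against 0.905 per 100 kb for the whole table.

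Expression was measured in 3 low-input RNA-Seq libraries, 1 from the strain C57BL/6 (B6) and 2 from the diabetes-prone strain NOD, all untreated. The labels give whole blastocysts as the input, whereas the study's methods give the inner cell mass (ICM) of single blastocysts, and neither gives the age or sex of the embryos or says whether the NOD libraries came from separate litters. The comparison addresses whether genes of this region differ in expression between the strains before implantation. With 1 B6 library, a difference between strains and a peculiarity of that library cannot be told apart.

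The class III region does not hold the classical antigen-presenting genes. It carries complement genes (C2, Cfb, C4a and C4b), heat shock protein 70 genes, the tumor necrosis factor cluster and many housekeeping genes for RNA processing, translation and chromatin. It is part of the H2 haplotype, which in NOD mice contains Idd1, the main genetic contributor to their diabetes. Complement and TNF cluster genes are known mainly from liver and leukocytes, while the housekeeping genes are used in nearly every cell.

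Total counts on genes were 12505685 in B6, against 33891715 in NOD 1 and 36171013 in NOD 2, so B6 is the shallowest library and sets the precision. Values are given in the order B6, NOD 1, NOD 2, as counts or as CPM, which are counts scaled to library size with edgeR's TMM factors. A count of 0 allows a level of up to 3 counts, or 0.220, 0.0908 and 0.0882 CPM. Summed CPM of 10 trophectoderm markers were 3089 in B6, against 1793 in NOD 1 and 1660 in NOD 2, and none of the 9 tested passed. Those of 9 ICM markers were 525, 801 and 1087, with Tdgf1, Utf1 and Zfp42 higher in NOD and Sox2 lower (49.8, 5.75 and 9.61 CPM). The 6 primitive endoderm markers summed to 391, 118 and 158 CPM, mostly from Gata6, which was lower in NOD (385, 91.5 and 130 CPM), whereas Pdgfra was higher (5.50, 23.6 and 24.6 CPM) and Foxa2 was at 0 in all libraries. The 9 leukocyte markers summed to 61.7, 22.1 and 24.2 CPM, nearly all from Laptm5 (61.3, 21.8 and 22.7), while Ptprc, Lyz2, Fcer1g and Cd79a were at 0 in every library. Lineage markers thus differed between B6 and NOD, in both directions within the ICM and primitive endoderm lists, and their part in the results was not tested. In bulk samples, fewer cells of a type and less RNA per cell cannot be told apart.

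Of the 62 members, 46 passed the filter on low counts, 9 had no count in any library and 7 had too few counts to be tested. Of the 46, 7 had under 10 counts in B6 and 4 had under 10 in both NOD libraries. In NOD, 12 members were lower and 1, Ppt2, was higher by edgeR's quasi-likelihood test (adjusted p under 0.05 over 14456 genes and at least a 2-fold change). The 12 lower members were 26.1% of the members tested, beside 7.39% of all genes tested, and the 1 higher member was 2.17%, beside 10.3%. The median log2 fold change (NOD minus B6) was -0.50 over the members and 0.26 over all genes. Both NOD libraries lay below B6 for 26 of the 46 members, beside 39.4% of all genes tested. Both lay above B6 for 13 members, beside 45.3%, and 7 members had NOD libraries on either side of B6 or level with it. The 4 members with under 10 counts in both NOD libraries were tested only because of B6 and had to lie below it. Msh5 and Ltb, at 0 counts in B6, likewise had to lie above it. With no filter on low counts or with limma-voom, none of the 13 calls passed (smallest adjusted p of a member 0.0649 and 0.0631). Each of the 13 had an unadjusted p under 0.05 and the same direction in both fits, but they were picked from these same counts. With no filter in edgeR, 17 of 53 members and 5568 of 16765 genes had an unadjusted p under 0.05. With limma-voom, 14 of 46 members and 3924 of 14456 genes did. In the filtered edgeR fit, 17 of 46 members and 5763 of 14456 genes did. In each of these fits the share of members was near that of all genes.

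Among members with a mean of at least 10 CPM over the libraries, 9 of 25 (36.0%) were lower in NOD, beside 10.2% of the 8467 genes at that level, and 1 was higher (4.0%, beside 14.0%). The flanks of chromosome 17 were counted by the same rule, without H2, microRNA and small nucleolar RNA genes. Over the 0.5 Mb before the region, 4 of 22 such genes tested were lower (BC051142, Brd2, Rgl2 and Rps18) and 1 was higher (Psmb9), with a median log2 fold change of -0.80. Over the same length as the region after it, 3 of 24 were lower and 3 were higher, with a median of -0.84. With the H2 genes the tallies were 5 lower and 8 higher of 32 before the region, and 3 lower and 7 higher of 40 after it. The medians were then -0.20 before the region and 0.34 after it. With H2 genes left out, medians below that of all genes were thus not particular to the class III region. The differences between the stretches were not tested.

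**Figure D1:**
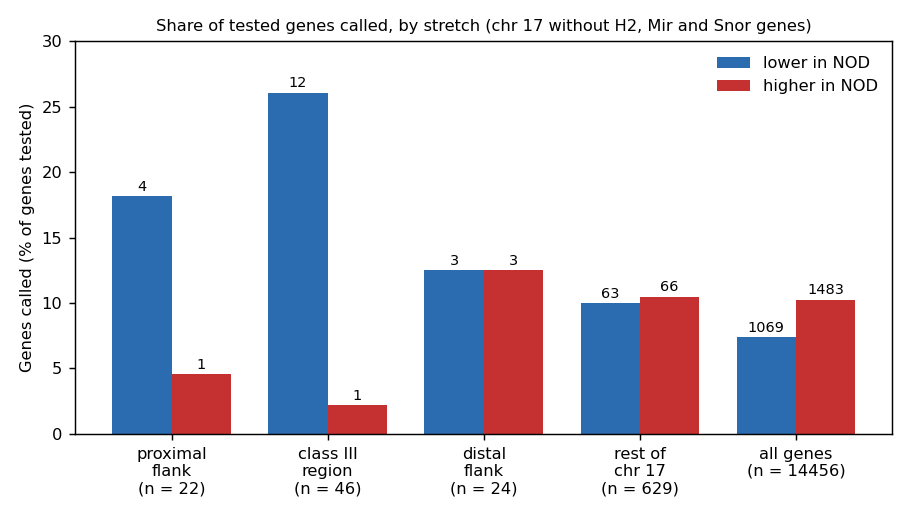
Percent of the genes tested that were called lower (blue) or higher (red) in NOD than in B6, with the number of genes above each bar, for the class III region, its flanks and the rest of chromosome 17 (H2, microRNA and small nucleolar RNA genes left out) and for all genes tested. The class III region has 12 lower and 1 higher of 46 genes, the proximal flank 4 and 1 of 22, and the distal flank 3 and 3 of 24.

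**Figure D2:**
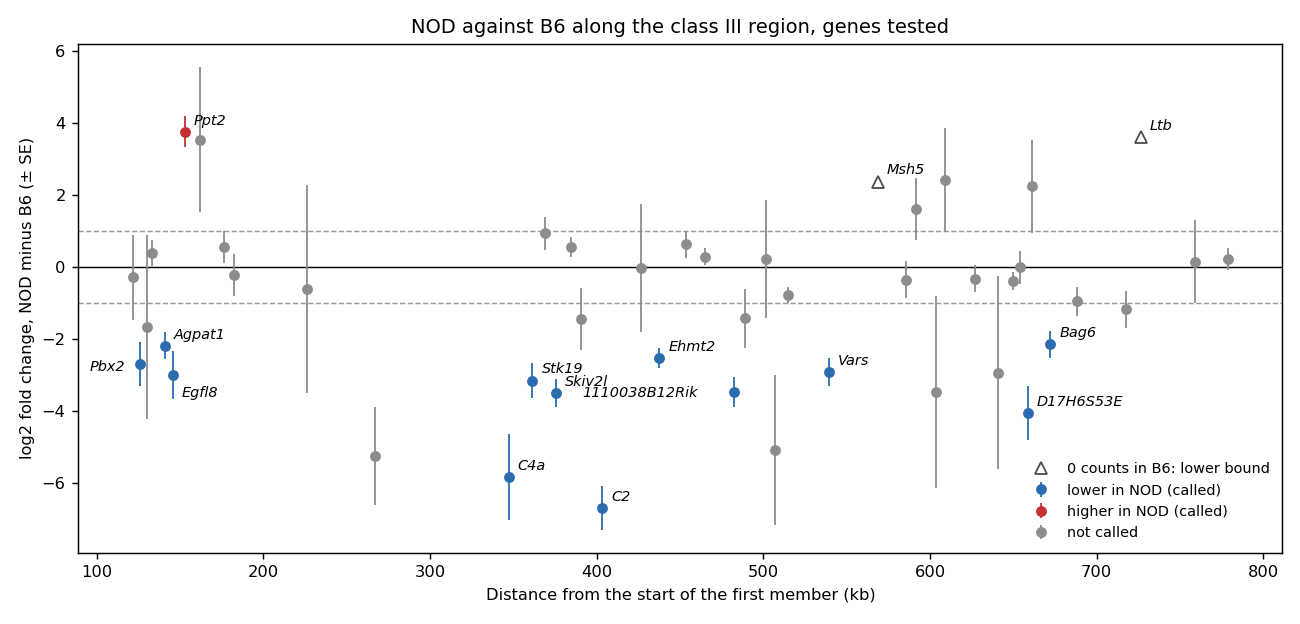
Fitted log2 fold change (NOD minus B6, with SE) of the 46 members tested against distance in kb from the start of the first member. Blue points are the 12 members called lower, the red point is Ppt2, grey points were not called, open triangles are lower bounds for Msh5 and Ltb, which had 0 counts in B6, and dashed lines mark a 2-fold change.

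Ppt2 (NM_019441, chr17:34616662-34627097, minus strand), a lysosomal thioesterase that removes fatty acyl groups, was the only member called higher. It had 709 counts in B6, against 17434 in NOD 1 and 29552 in NOD 2, or 52.0, 527 and 869 CPM. Both NOD libraries were far above B6, with a log2 fold change of 3.75 ± 0.43 (SE; edgeR adjusted p = 0.0212). Ppt2 took 2.001% of all member counts in B6 but 27.7% in NOD 1 and 37.5% in NOD 2, and per length it was the most abundant member on average. Member CPM summed to 2601 in B6, against 1903 in NOD 1 and 2318 in NOD 2. Without Ppt2, the sums were 2549 in B6, against 1375 in NOD 1 and 1449 in NOD 2. Of the 50-base words of its transcript, 42.6% also occur in Gm20460, an annotated readthrough transcript of the same locus that also holds 36.4% of the words of its neighbor Egfl8, so counts of Ppt2 may include that transcript.

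Egfl8 (chr17:34613350-34615971), which encodes a secreted protein with EGF-like domains, and Agpat1 (chr17:34605861-34613449), an acyltransferase that makes phosphatidic acid, are the next genes toward the class II side of Ppt2 and had the opposite direction. Egfl8 had 291 counts in B6, against 58 in NOD 1 and 121 in NOD 2, with a log2 fold change of -3.01 ± 0.67 (edgeR adjusted p = 0.0456), a call that was lost with upper-quartile scaling, and the log2 fold change was -3.60 without NOD 2. Agpat1 had 725, 386 and 395 counts, with a log2 fold change of -2.19 ± 0.37 (edgeR adjusted p = 0.0303). For both genes B6 had more counts than either NOD library in spite of its lower depth. The ends of Agpat1 and Egfl8 overlap by 96 exonic bases on opposite strands, and since reads were counted on both strands together, reads in that overlap cannot be assigned to either gene.

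The promoters of Ppt2, the higher gene, and Ehmt2, a lower gene chosen for contrast after its values were seen, are shown as 250 bases before to 50 after the RefSeq start (GRCm38.p6), with CpG dinucleotides in capitals. Ppt2 is at chr17:34627099-34627398 (minus strand) and Ehmt2 at chr17:34898720-34899019 (plus strand).
Ppt2: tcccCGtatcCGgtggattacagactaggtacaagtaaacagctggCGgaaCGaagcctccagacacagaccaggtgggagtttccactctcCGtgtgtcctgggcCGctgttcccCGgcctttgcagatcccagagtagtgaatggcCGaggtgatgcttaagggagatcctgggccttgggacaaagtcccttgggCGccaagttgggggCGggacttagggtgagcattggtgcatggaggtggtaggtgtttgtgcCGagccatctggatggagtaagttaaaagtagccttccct
Ehmt2: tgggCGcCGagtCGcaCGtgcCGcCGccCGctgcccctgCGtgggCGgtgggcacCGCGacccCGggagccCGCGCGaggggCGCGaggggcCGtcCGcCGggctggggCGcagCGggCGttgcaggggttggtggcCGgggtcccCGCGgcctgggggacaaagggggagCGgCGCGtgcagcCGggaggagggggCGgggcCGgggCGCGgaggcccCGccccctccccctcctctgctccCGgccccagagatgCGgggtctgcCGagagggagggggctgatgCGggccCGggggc
The Ppt2 promoter has 11 CpG dinucleotides and 56.7% G and C, and that of Ehmt2 has 40 and 82.7%. Of the 62 members, 45 had a RefSeq promoter whose start lay within 1000 bases of the start in the count table. The lower members C2, C4a, Stk19, Skiv2l and Vars had no such promoter. Over the 7 lower members that had one, the median GC content was 68.0% and the median CpG ratio (observed over expected) was 0.832. Over the 25 members tested and not called, the medians were 59.7% and 0.542. They were 60.7% and 0.756 over all genes tested, and 62.3% and 0.785 over all genes lower in NOD. These are descriptions of the sequence alone.

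**Figure D3:**
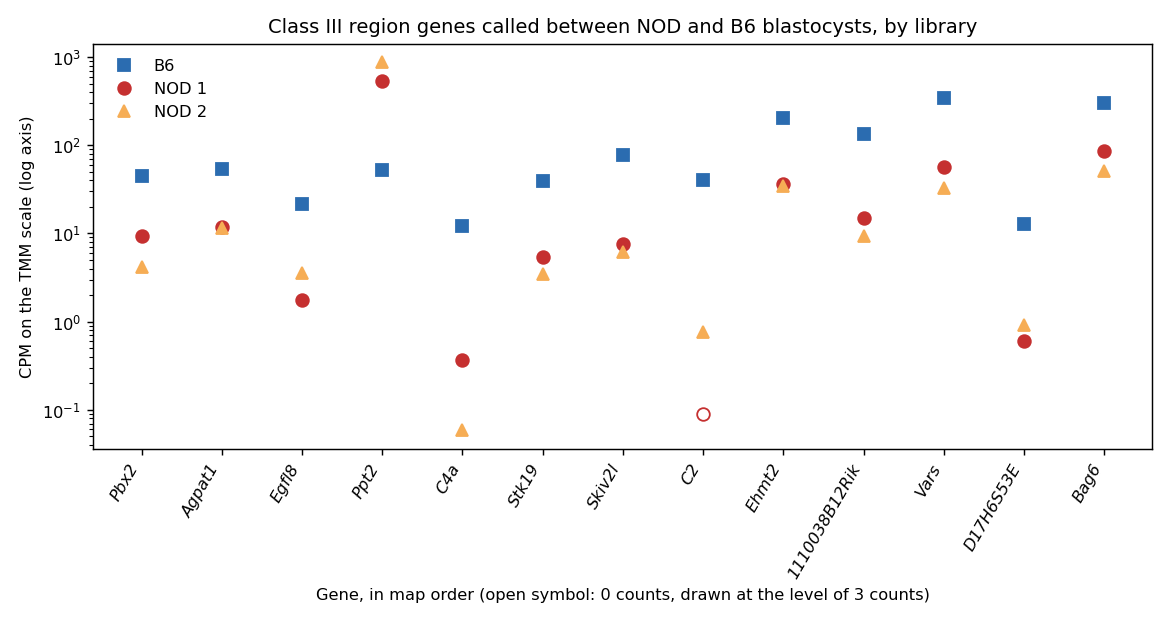
CPM on the TMM scale (log axis) of the 13 called members in map order, for B6 (squares), NOD 1 (circles) and NOD 2 (triangles); the open symbol is C2 in NOD 1, which had 0 counts and is drawn at the level of 3 counts. The NOD libraries lie above B6 for Ppt2 and below it for the 12 others.

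Of the 4 complement genes tested, C2 and C4a were lower in NOD, beside 7.39% of all genes tested. C2 (chr17:34862602-34882100), the protease that joins activated C4 to form the C3 convertase of the classical pathway, had 548 counts in B6, against 0 in NOD 1 and 26 in NOD 2. Its level over the pooled NOD counts was 104-fold higher in B6 (95% counting interval 70.05 to 160), and the log2 fold change was -6.69 ± 0.60 (edgeR adjusted p = 0.0196). Its call was lost with DESeq2 (adjusted p = 0.256), and without NOD 1, which had no count, its log2 fold change was -5.69. C4a (chr17:34809092-34823454), one of the 2 mouse genes for the fourth complement component, had 167, 12 and 2 counts, with a log2 fold change of -5.83 ± 1.18 (edgeR adjusted p = 0.0393), a call that was lost with upper-quartile scaling. The fold change of C4a was -5.06 on the log2 scale without NOD 2 and -7.57 without NOD 1.

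C4b (chr17:34728381-34743897), the other gene for that component, had 41, 2 and 3 counts. Its level, pooled likewise, was 40.4-fold higher in B6 (95% counting interval 16.0 to 131), and with a log2 fold change of -5.25 ± 1.37 it missed the threshold (edgeR adjusted p = 0.0517). Of the 50-base words of C4a, 35.3% also occur in C4b, so the split of reads between the genes is uncertain. Cfb (chr17:34856374-34862514), the serine protease of the alternative pathway, had 72, 53 and 76 counts, with a log2 fold change of -1.46 ± 0.86 that did not pass (edgeR adjusted p = 0.261). Both NOD libraries lay below B6 for all 4 of these genes, beside 39.4% of all genes tested. C4b had under 10 counts in both NOD libraries, so it was tested only because of B6 and had to be lower in NOD. C2 and Cfb share 58.0% and 80.1% of their words with Gm20547, an annotated transcript of the same locus. Cyp21a1, the steroid 21-hydroxylase that lies between the C4 genes, had no count in any library. Outside the region, 14 of 24 listed complement genes were tested, of which 1 passed, Cd59a (the membrane inhibitor of the terminal complex), which was higher in NOD with 89, 1758 and 1633 counts. That share is near the 10.3% of all genes called higher.

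Stk19 and Skiv2l, both on the minus strand, were lower in NOD, whereas the plus-strand genes that start beside them were not called. Stk19 (chr17:34823993-34836903), annotated as a serine/threonine kinase, had 538 counts in B6, against 177 in NOD 1 and 119 in NOD 2, or 39.5, 5.36 and 3.497 CPM. Its log2 fold change was -3.16 ± 0.50 (edgeR adjusted p = 0.0275), and 12.05% of its words also occur in the pseudogene Stk19-ps1. Skiv2l (chr17:34839226-34850204), the helicase of the SKI complex that feeds mRNA to the cytoplasmic exosome, had 1064, 250 and 209 counts, or 78.1, 7.56 and 6.14 CPM. The log2 fold change of Skiv2l was -3.51 ± 0.38 (edgeR adjusted p = 0.0203).

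Each of these genes starts back to back with a plus-strand gene that was not called. Dxo (chr17:34837019-34839186), a decapping exonuclease, starts 115 bases from Stk19 and had 214, 1151 and 854 counts (log2 fold change 0.93 ± 0.45, edgeR adjusted p = 0.193). Nelfe (chr17:34850391-34856372), the RNA-binding subunit of the negative elongation factor, starts 186 bases from Skiv2l and had 1224, 4206 and 4654 counts (log2 fold change 0.56 ± 0.28, edgeR adjusted p = 0.201). The count ratio of Stk19 to Dxo was 2.51 in B6, against 0.154 in NOD 1 and 0.139 in NOD 2. That of Skiv2l to Nelfe was 0.869, 0.0594 and 0.0449. In both pairs the NOD libraries had close ratios that were far from that of B6. Of 5 back-to-back pairs whose starts lie within 1000 bases, the other 3 had no called gene. Csnk2b and Gpank1, 48 bases apart, had ratios of 8.49, 7.72 and 5.78. Nfkbil1 and Atp6v1g2 had ratios of 11.5, 8.4 and 84, with at most 5 counts on Atp6v1g2, and Hspa1a and Hspa1l had 0.127 in B6 and 3.33 in NOD 2, with 0 counts on Hspa1l in NOD 1. A ratio within a library does not depend on its depth, and with 1 B6 library these ratios were not tested.

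**Figure D4:**
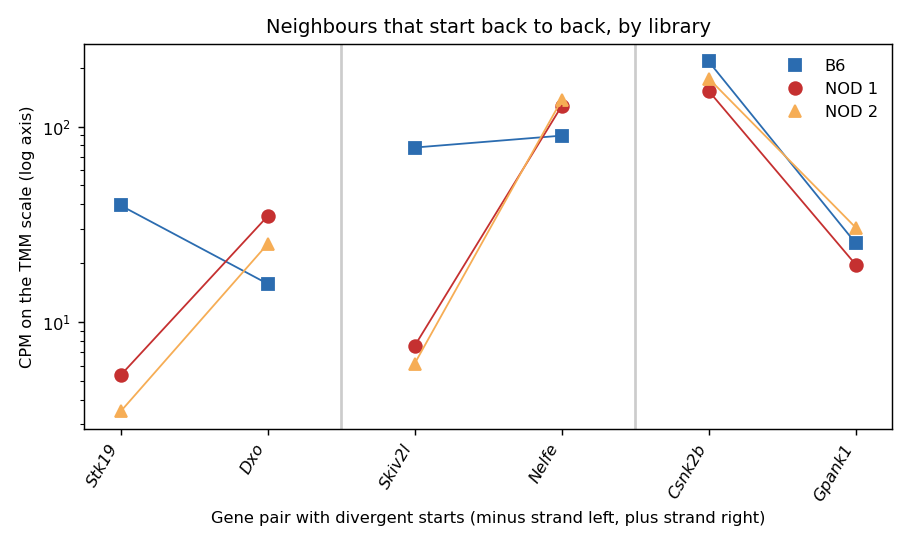
CPM on the TMM scale (log axis) of the 3 gene pairs that start back to back with at least 100 counts on both genes in every library, with a line joining the pair within each library (B6 blue squares, NOD 1 red circles, NOD 2 orange triangles). Stk19 and Skiv2l lie lower in both NOD libraries while Dxo and Nelfe lie higher, and the lines of Csnk2b and Gpank1 run nearly parallel.

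Among the other RNA-processing members, Lsm2, Ddx39b and Prrc2a were not called. Lsm2 (chr17:34981854-34985893), a subunit of the LSM rings that bind U6 RNA and decaying mRNA, was on average the second most abundant member per length. In B6 alone it was the most abundant. It had 3851 counts in B6, against 5346 in NOD 1 and 5671 in NOD 2. Both NOD libraries were below B6 on the CPM scale (283, 162 and 167 CPM), with a log2 fold change of -0.78 ± 0.23 (edgeR adjusted p = 0.0738). Ddx39b (chr17:35241746-35253707), the helicase that loads mRNA export factors, had 2531, 5879 and 8562 counts and a log2 fold change of 0.21 ± 0.31 (edgeR adjusted p = 0.629), although its exons overlap Mir8094 by 90 bases. Prrc2a, a large proline-rich protein, had 571, 800 and 642 counts, and its log2 fold change of -0.96 ± 0.39 did not pass (edgeR adjusted p = 0.143).

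Partners of these proteins that are encoded elsewhere were read from the same test. Of 13 SKI complex and exosome partners of Skiv2l, 4 were higher in NOD (Wdr61, Exosc1, Exosc4 and Exosc9) and 0 were lower at the same threshold, beside 10.3% and 7.39% of all genes tested. Wdr61, which binds Skiv2l in the SKI complex, had 1619 counts in B6, against 10593 in NOD 1 and 12776 in NOD 2. Of 7 LSM partners, 1 (Lsm8) was higher, as was 1 of 10 partners in mRNA export (Ddx39, a close relative of Ddx39b), and none of 3 NELF partners passed. Both shares are near the 10.3% of all genes called higher.

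Chromatin and transcription genes of the region included 3 lower members of 7, Ehmt2, Pbx2 and Stk19 (given above), beside 7.39% of all genes tested. Ehmt2 (chr17:34898974-34914050), known as G9a, the methyltransferase that places mono- and dimethylation on lysine 9 of histone H3, had 2797 counts in B6, against 1210 in NOD 1 and 1160 in NOD 2, or 205, 36.6 and 34.1 CPM. The NOD libraries were close to each other and far below B6, with a log2 fold change of -2.54 ± 0.28 (edgeR adjusted p = 0.0203). Of 9 partners and related enzymes of G9a, 1 passed the threshold, Hdac2, a histone deacetylase, which was higher in NOD, a share near the 10.3% of all genes. Pbx2 (chr17:34592471-34597341), a homeodomain partner of HOX proteins, had 603, 312 and 141 counts, with a log2 fold change of -2.70 ± 0.60 (edgeR adjusted p = 0.0458). Its call was lost with total-count or upper-quartile scaling, and its log2 fold change was -3.40 without NOD 1.

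Msh5 (chr17:35028605-35046606), a MutS homolog of meiotic crossing over, had 0 counts in B6, against 36 in NOD 1 and 40 in NOD 2. Its mean level in NOD was at least 5.14-fold higher against a floor of 3 counts in B6, without passing the test (edgeR adjusted p = 0.102). Atf6b, an ER stress transcription factor, had 169, 263 and 454 counts, Nfkbil1 had 23, 42 and 84, and Zbtb12 had 6, 18 and 11. None of these 3 passed.

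In translation and protein quality control, 2 of 6 members were lower, beside 7.39% of all genes tested. Vars (chr17:35000907-35016329), the valyl-tRNA synthetase, had 4611 counts in B6, against 1883 in NOD 1 and 1117 in NOD 2, or 338, 57.0 and 32.8 CPM, with a log2 fold change of -2.91 ± 0.39 (edgeR adjusted p = 0.0231). In B6 it was the member with the highest CPM. Bag6 (chr17:35135178-35147322), a chaperone that sorts tail-anchored and mislocalized membrane proteins, had 4136, 2807 and 1745 counts, or 304, 84.9 and 51.3 CPM, with a log2 fold change of -2.16 ± 0.36 (edgeR adjusted p = 0.0299). None of the 3 listed partners of Bag6 (Get4, Asna1 and Sgta) passed. Csnk2b (chr17:35116195-35121447), the regulatory subunit of casein kinase 2, had 2930, 5024 and 5987 counts and a log2 fold change of -0.39 ± 0.25 that did not pass (edgeR adjusted p = 0.288). Of its 2 catalytic partners, Csnk2a1 was lower in NOD with 1307, 1059 and 772 counts, and Csnk2a2 was not called with 727, 2334 and 1672 counts (log2 fold change 0.17, edgeR adjusted p = 0.767). The ubiquitin ligase Rnf5 (619, 2152 and 1790 counts), Fkbpl (203, 759 and 709) and Gpank1 (345, 651 and 1036) did not pass.

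Outside the role groups, the 2 members tested of 3 listed were lower, beside 7.39% of all genes tested. 1110038B12Rik (chr17:34950236-34952468), a non-coding RNA whose introns hold Snord52, had 1841 counts in B6, against 498 in NOD 1 and 319 in NOD 2, or 135, 15.1 and 9.38 CPM. Per length it was the fifth most abundant member on average, and its log2 fold change was -3.47 ± 0.42 (edgeR adjusted p = 0.0217). Snord52 itself was counted separately, with 21, 8 and 14 counts. D17H6S53E (chr17:35126402-35128855) had 173, 20 and 31 counts and a log2 fold change of -4.06 ± 0.76 (edgeR adjusted p = 0.0351).

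The heat shock 70 genes are inducible chaperones (Hspa1a and Hspa1b) and a relative known from testis (Hspa1l). Hspa1b (chr17:34956429-34959238) had 90 counts in B6, against 102 in NOD 1 and 62 in NOD 2, with a log2 fold change of -1.43 ± 0.82 (edgeR adjusted p = 0.250). Hspa1a (chr17:34969359-34972156) had 8, 16 and 30 counts, with a log2 fold change of 0.22 ± 1.64 (edgeR adjusted p = 0.929). Hspa1l (chr17:34972703-34979228) had 63, 0 and 9 counts, and its pooled level was 34.5-fold higher in B6 (95% counting interval 17.05 to 78.8) but did not pass (edgeR adjusted p = 0.137). Its log2 fold change was -5.08, and -4.09 without NOD 1, which had no count. Hspa1l had under 10 counts in both NOD libraries, so it was tested only because of B6 and had to be lower in NOD. None of the 3 passed, and each had at most 102 counts in a library. Of 10 other heat shock 70 genes tested, 4 were higher in NOD (Hspa5, Hspa14, Hspa13 and Hspa4l) and 1 was lower (Hspa8, the constitutive cytosolic form), beside 10.3% and 7.39% of all genes tested.

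The sequences of Hspa1a and Hspa1b are so alike that 60.4% of the 50-base words of Hspa1a occur in Hspa1b, and the split of their reads is uncertain. Their promoters (GRCm38.p6, 250 bases before to 50 after the RefSeq start, both on the minus strand, chr17:34972107-34972406 for Hspa1a and chr17:34959189-34959488 for Hspa1b) are shown because the same likeness extends upstream of the genes. Capitals mark GAANNTTC, a facing pair of the units that make up the heat shock element.
Hspa1a: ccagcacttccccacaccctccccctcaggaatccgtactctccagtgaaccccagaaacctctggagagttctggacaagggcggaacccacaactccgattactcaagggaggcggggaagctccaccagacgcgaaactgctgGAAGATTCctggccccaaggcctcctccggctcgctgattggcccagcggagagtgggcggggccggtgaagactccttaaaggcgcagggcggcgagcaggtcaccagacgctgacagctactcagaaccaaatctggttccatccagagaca
Hspa1b: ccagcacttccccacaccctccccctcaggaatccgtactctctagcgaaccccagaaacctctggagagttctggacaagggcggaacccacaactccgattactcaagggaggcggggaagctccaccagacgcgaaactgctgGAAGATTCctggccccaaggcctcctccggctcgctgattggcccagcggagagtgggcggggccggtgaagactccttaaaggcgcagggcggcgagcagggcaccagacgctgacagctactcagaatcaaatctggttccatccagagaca
The promoters are identical at 296 of 300 positions (98.7%), with a longest identical run of 201 bases, and each holds GAANNTTC once, 104 bases before the start. The pairs GAANNTTC and TTCNNGAA, each its own reverse complement so that both strands were searched, were in 4 of the 45 member promoters (8.89%; Hspa1a, Hspa1b, Ddx39b and Ly6g6d), and in 13.9% of 16336 promoters. A match describes the letters only.

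The TNF cluster and leukocyte genes had few counts. Tnf and Lta, cytokines of activated leukocytes, had no count in any library. Ltb (chr17:35194507-35196305), the membrane subunit of lymphotoxin, had 0 counts in B6, against 44 in NOD 1 and 137 in NOD 2, and its mean level in NOD was at least 12.2-fold higher against a floor of 3 counts (6.05-fold from NOD 1 alone and 18.3-fold from NOD 2 alone). It did not pass (edgeR adjusted p = 0.0647) but did with DESeq2 (adjusted p = 0.0258). Lst1 (chr17:35185095-35188440), a leukocyte transmembrane protein, had 233, 258 and 250 counts, or 17.1, 7.81 and 7.35 CPM, with a log2 fold change of -1.17 ± 0.51 (edgeR adjusted p = 0.159). Aif1, a calcium-binding protein of macrophages, had 14 counts in NOD 1 and 0 in the others, and Gpsm3, a regulator of G protein signaling, had 23, 51 and 41. With 0 counts in B6, Ltb was tested only because of the NOD libraries and had to be higher in NOD. Its direction opposite to that of Lst1 is therefore no result. The leukocyte markers, given above by their sum, went both ways, with Laptm5 at 61.3, 21.8 and 22.7 CPM and Coro1a at 0.0734, 0.303 and 0.940 CPM. Their part in these values was not tested. Of 8 receptors and adaptors of these cytokines that were tested, 1 passed, Birc3, an inhibitor of apoptosis, which was lower in NOD, a share not far from the 7.39% of all genes.

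Notch4, a receptor of endothelial cells, had 0, 1 and 0 counts, and Tnxb, a matrix glycoprotein, had 6, 19 and 0. Ager, the receptor for advanced glycation end products, had 20 counts in B6, against 0 in NOD 1 and 31 in NOD 2, so NOD 1 alone lacked it. Of 9 Notch receptors, ligands and targets elsewhere that were tested, 3 were lower in NOD (Notch1, Notch3 and Jag1), beside 7.39% of all genes tested. Of these, Notch3 and Jag1 had 50 and 54 counts in B6 and 0 in both NOD libraries, so they were tested only because of the B6 library and had to be lower in NOD, and their share is no result about the list.

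The remaining metabolic and channel genes were not called. Neu1 (chr17:34931253-34937297), the lysosomal sialidase, had 2428 counts in B6, against 6971 in NOD 1 and 7510 in NOD 2, with a log2 fold change of 0.28 ± 0.24 (edgeR adjusted p = 0.412), in contrast to Ppt2, which also acts in the lysosome. Slc44a4, a choline transporter family member, had 686, 2108 and 3099 counts, Abhd16a, a phospholipase, 501, 943 and 1024, and Clic1, a chloride channel protein, 302, 425 and 741. Apom, the apolipoprotein that carries sphingosine 1-phosphate, had 13, 240 and 59 counts, and its pooled level was 4.67-fold higher in NOD (95% counting interval 2.69 to 8.88). It did not pass (edgeR adjusted p = 0.252), and its log2 fold change of 2.23 was 0.87 without NOD 1. Ddah2 had 22, 167 and 164 counts and did not pass (edgeR adjusted p = 0.227). Prrt1 had 1, 31 and 29 counts, a pooled ratio of NOD to B6 of 12.2 with a 95% counting interval of 2.11 to 489, and did not pass (edgeR adjusted p = 0.246).

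The butyrophilin-like genes at the proximal end (Btnl4, Btnl5-ps and Btnl6) had no count in any library, as had G6b, G6bos and Ly6g6f of the surface protein cluster. In that cluster Ly6g6e had 7, 38 and 148 counts, Ly6g6d 14, 0 and 6, and Ly6g5c 13, 8 and 0, and none passed. Sapcd1 had 0, 5 and 0 counts and Ly6g6c 0, 0 and 5. These genes and Ly6g5b, Vwa7 and Atp6v1g2, which had at most 7 counts in any library, were not tested.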

How the data were processed

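Low-input RNA-Seq libraries were prepared by the authors with SMART-Seq V4 and sequenced as single-end reads of 50 bases. Per the study's methods, reads were aligned with STAR to mm10, which is the C57BL/6 sequence. Per the file headers, HOMER counted reads on exons of both strands, and the deposited values are raw counts per gene. Reads of NOD lost to sequence differences from mm10 were not measured, and the treatment of reads that align to several places is not given in the sources used here. Groups followed the strain in the labels. Members and lists were chosen with earlier results of these data known. Every member is named or counted. Those called, the complement, heat shock 70 and TNF groups, the 5 most abundant members per length and those at 0 in one strain have a value for every library.

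Counts were tested with edgeR 4.0.16 (R 4.3.3): filterByExpr with a minimum count of 10, TMM scaling (factors 1.09, 0.975 and 0.941 in the order B6, NOD 1, NOD 2), the quasi-likelihood test with 1 residual degree of freedom, a prior count of 0.125 and Benjamini-Hochberg adjustment over 14456 genes. SEs are the absolute fitted log2 change over the root of its F statistic. An exact permutation test of 1 against 2 libraries cannot give a p below 0.333. Counting intervals are exact Clopper-Pearson intervals and, like floors, take in counting error alone, since PCR copies without molecular identifiers do not count molecules. P-values measure the spread between the NOD libraries, which may be technical. Abundance per length is FPKM from the listed gene length. Shared words and exons were taken from GENCODE M21, with 61 of 62 members matched, and promoters from RefSeq (GRCm38.p6). DESeq2 1.42.0 and limma 3.58.1 were alternatives, and edgeR's legacy option was added after seeing the data.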

Additional observations from a re-analysis of the deposited data

How the results depend on the processing

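The 13 calls had the same direction under every scaling, filter and tool tried, but their significance rests on pooled dispersion from 2 NOD libraries. With no filter on low counts, 0 members were lower and 0 higher, and 0 of 16765 genes passed in all (5568 at an unadjusted p under 0.05). With limma-voom, 0 members were lower and 0 higher, and again 0 genes passed in all (3924 at an unadjusted p under 0.05). In these fits the smallest adjusted p of a member was 0.0649 and 0.0631. An unadjusted p under 0.05 was found for 17 and 14 members, with all 13 called members among them in both. With edgeR as reported, 17 of 46 members and 5763 of 14456 genes had an unadjusted p under 0.05. In each fit the share of members at that level was near that of all genes. Members higher in NOD were 2 with DESeq2 and 2 at an adjusted p under 0.1 (Ppt2 and Ltb), and 0 of the members with under 10% shared words, which leaves out Ppt2. Members lower in NOD numbered between 8 and 13 in the other settings. The share of all genes called lower moved as well. It was 4.85% with upper-quartile factors (9 members lower) and 13.1% with DESeq2 (11 members lower), so the excess of the members depends on the setting. Upper-quartile factors lost Pbx2, Egfl8 and C4a, total counts lost Pbx2, DESeq2 lost C2, and both total counts and DESeq2's size factors added C4b. edgeR's legacy option, added after seeing the data, lost none.

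The members' median log2 fold change of -0.50 was -0.67 with total counts (0.07 over all genes, against 0.26 with TMM factors), -0.33 with no filter, -0.39 over members that share no exon base and -0.37 over those with under 10% shared words. It lay between -0.71 and -0.57 when 1 NOD library was left out. With total counts, 7.17% of all genes were higher and 7.83% lower. No paired analysis was possible because B6 has 1 library, so the groups share fewer than 2 replicate numbers. Depth limits members under the floor of 3 counts in B6, and the B6 library could not be left out.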
